A study of Mus musculus with 69 samples.

Results

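The regions described here are the ATAC-seq peaks of 2 clones of mouse embryonic stem cells, Mut18 and Mut43, that carry the same histone mutation. They were chosen by position alone. The peak lists of Mut18-1, Mut18-2, Mut43-1 and Mut43-2 on chromosomes 1 to 19 (mm10) were pooled, and peaks that shared at least 1 bp were merged, so that 260071 peaks of the 401437 in the 6 ATAC-seq lists became 78487 regions. Both clones derive from J1, a 129S4/SvJae line from the inner cell mass of the blastocyst, and carry H3.3K27R, a lysine to arginine change in the histone variant H3.3 made by CRISPR editing of both alleles of H3f3a and of H3f3b. WT is the unedited J1 line. WT and each mutant clone had 2 ATAC-seq and 2 mRNA-seq libraries, and the mutant genotype was seen in these 2 clones only. The cells had been grown on feeder cells before feeder-free passages. Both clones carry the mutation but went through editing, cloning and expansion separately. A difference between them is thus one of clone against clone, and these steps cannot be told apart as its source. In a difference of 1 clone from WT, the mutation and the clone's own history cannot be told apart.

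ATAC-seq reads out chromatin that the transposase Tn5 can reach, mainly promoters, enhancers and insulators, where nucleosomes are displaced by transcription factors. H3.3 is the replication-independent form of histone H3 and is placed at active promoters and enhancers, where acetylation of its lysine 27 is a mark of activity. Independent clones of one edit are used as each other's control, since each also carries what happened to its own founder cell.

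The 4 sequences below show the kinds of region in which the clones could differ: from the regions in Mut18 only and from those in Mut43 only, the one whose lower percentile rank of the clone's libraries was highest, one of the regions whose rank differed most, and a region near the edited H3f3b gene. Each holds 300 bp of the + strand of mm10 around the summit (RefSeq GRCm38.p6), in lower case, and capitals mark a match to one of 7 factor motifs. The region near 1700123K08Rik is chr5:138571676-138571975, the one near Chil5 is chr3:106067787-106068086, the one near BC030870 is chr8:65194288-65194587 and the one near Galk1 is chr11:116018213-116018512.
1700123K08Rik: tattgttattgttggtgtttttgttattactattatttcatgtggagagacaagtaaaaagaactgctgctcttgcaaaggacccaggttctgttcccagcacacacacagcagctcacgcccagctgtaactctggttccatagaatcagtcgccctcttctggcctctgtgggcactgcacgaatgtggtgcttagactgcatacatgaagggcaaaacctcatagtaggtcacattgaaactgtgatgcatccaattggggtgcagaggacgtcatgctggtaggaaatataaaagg
Chil5: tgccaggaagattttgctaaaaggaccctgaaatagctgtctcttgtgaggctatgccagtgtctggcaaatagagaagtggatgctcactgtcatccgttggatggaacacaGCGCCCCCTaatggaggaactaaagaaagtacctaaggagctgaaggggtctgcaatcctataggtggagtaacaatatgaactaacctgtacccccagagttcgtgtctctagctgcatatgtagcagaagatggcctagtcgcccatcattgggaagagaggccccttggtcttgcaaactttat
BC030870: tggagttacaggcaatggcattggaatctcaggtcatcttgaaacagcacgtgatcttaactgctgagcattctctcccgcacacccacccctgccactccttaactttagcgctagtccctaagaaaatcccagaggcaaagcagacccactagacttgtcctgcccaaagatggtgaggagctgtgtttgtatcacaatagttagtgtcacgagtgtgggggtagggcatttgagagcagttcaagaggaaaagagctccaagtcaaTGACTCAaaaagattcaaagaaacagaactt
Galk1: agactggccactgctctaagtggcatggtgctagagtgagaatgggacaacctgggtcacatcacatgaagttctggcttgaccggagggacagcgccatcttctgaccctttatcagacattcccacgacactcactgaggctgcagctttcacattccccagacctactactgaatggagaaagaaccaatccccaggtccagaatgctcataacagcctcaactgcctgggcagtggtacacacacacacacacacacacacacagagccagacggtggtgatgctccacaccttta
The capitals in the Chil5 region are the CTCF core letters AGGGGGCGC on the other strand, which 1.86% of all regions held in such a window. Those in the BC030870 region are the AP-1 letters TGANTCA, held by 8.66% of all regions. The windows near 1700123K08Rik and Galk1 held no match.

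The 4 mutant lists were alike in size, with 61745 to 67790 peaks on these chromosomes and a median of 36 to 38 reads at a summit, so counting error alone was 16.2 to 16.7% of a median summit. The reads at a summit, solved together with the caller's background beneath it, came out as whole numbers for 100% of peaks. The genome background was 2.01, 2.27, 2.28 and 2.01 reads per base in Mut18-1, Mut18-2, Mut43-1 and Mut43-2, and 3.36 and 2.06 in WT-1 and WT-2. Mut18-2 and Mut43-1 were thus the deeper library of each clone. The promoters of 17 of 19 pluripotency genes on these chromosomes were in all 4 mutant lists, Pou5f1, Sox2 and Nanog among them.

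Of the 78487 regions, 50933 (64.9%) had a peak in all 4 lists. A peak in both Mut18 lists and in neither Mut43 list was found in 1212 regions (1.54%), and the reverse in 1204 regions (1.53%). Together these 2416 regions were 3.08% of all. The other ways to pair the 4 libraries gave 2415 regions when Mut18-1 was paired with Mut43-1, and 2926 when it was paired with Mut43-2. The pairing by clone thus came second of the 3 (exact permutation test over the 3 pairings, 1-sided, p = 0.667, smallest possible 0.333). The most frequent pattern of 2 lists was Mut18-2 with Mut43-1 (2293 regions), the deeper libraries, and the least frequent was Mut18-1 with Mut43-2 (633 regions).

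**Figure D1:**
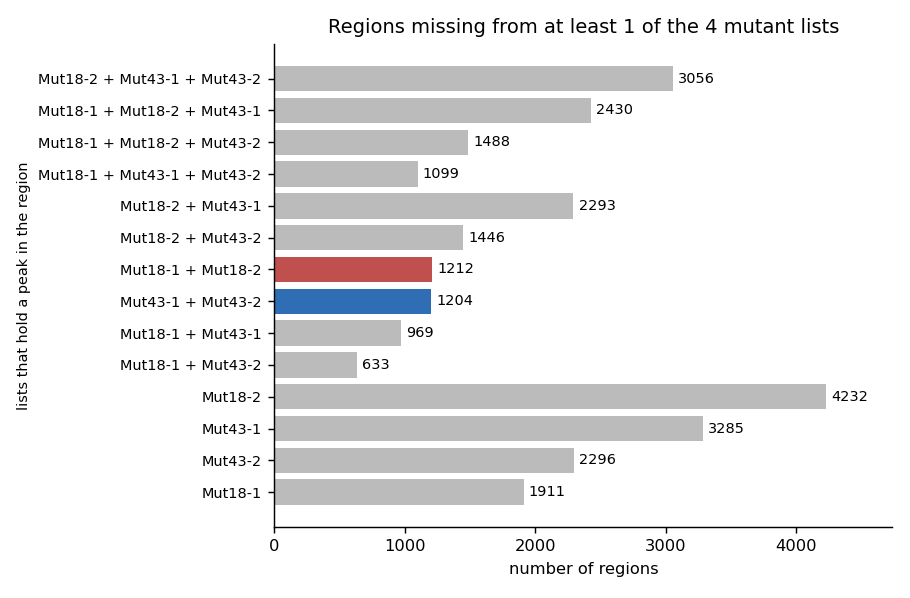
Number of regions (x axis) for each combination of lists with a peak (y axis), leaving out the 50933 regions in all 4 lists. The bars for both Mut18 lists (red, 1212) and both Mut43 lists (blue, 1204) lie between those of pairs made of 1 library of each clone (633 to 2293).

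Seen from 1 clone, 90.8% of the 56063 regions in both Mut18 lists were also in both Mut43 lists, and 2.16% were in neither. For the 56292 regions in both Mut43 lists these shares were 90.5% and 2.14%. The regions found in 1 clone only were weak and narrow. Their median best percentile was 32.2 in Mut18 and 34.1 in Mut43, where the percentile ranks a peak's fold enrichment over its local background within its own list and 100 is the highest. Their median widths were 199 and 189.5 bp, against 433 bp for regions in all 4 lists. Regions with 1 list of each clone were alike, with medians of 33.6 and 196 bp, so these traits were not particular to clone-only regions. None of the clone-only regions had a percentile above 90, although 10149 regions of all did, and 99.9% of those were in all 4 lists.

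The WT lists, which had no part in the choice of these regions, held many of them. Of the Mut18-only regions 43.1% were in both WT lists and 25.2% in neither, and of the Mut43-only regions 41.3% and 25.9%. Regions with 1 list of each clone had nearly the same shares, 41.9% and 25.4%. Regions in all 4 mutant lists were in both WT lists in 94.3% of cases. With the same number of peaks taken from every list, the share in both WT lists was 29.2% for Mut18 only, 28.0% for Mut43 only and 28.3% for 1 list of each clone.

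Promoters were shared more often than distal regions. Of the 17786 regions within 1 kb of a protein-coding transcription start site (TSS), 80.2% were in all 4 lists, and 0.826% and 0.860% were in Mut18 only and Mut43 only. Of the 60701 regions farther away, 60.4% were in all 4 lists, and 1.75% and 1.73% were in 1 clone only. The clone-only regions lay mostly in introns (44.6% for Mut18 and 46.1% for Mut43) and between genes (43.8% and 41.2%). Within 1 kb of a TSS lay 12.1% and 12.7%. For regions with 1 list of each clone these shares were 46.3%, 40.7% and 12.8%.

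Among the regions in 1 clone only, the 6 of each clone whose lower percentile in its libraries was highest were all distal. For Mut18 they lay near 1700123K08Rik, Ndrg1, Asic2, Ripk2, Pts and Lrrn3, 7132 to 541668 bp from the TSS. The 1700123K08Rik region had 29 and 34 summit reads in Mut18-1 and Mut18-2 and 34 in WT-1, and no peak in WT-2. For Mut43 they lay near Chil5, Npvf, Ywhaq, Olfr746, Gdf6 and Bcl11b. The Chil5 region had 33 and 28 reads in Mut43-1 and Mut43-2, and 36 and 30 in the WT libraries. Of these 12 regions, Npvf alone had no peak in either WT list, with 31 and 28 reads in the Mut43 libraries. Ndrg1, a stress-responsive gene, Ripk2, a kinase of innate immune signalling, Gdf6, a BMP family ligand, and Bcl11b, a T cell transcription factor, are only the nearest genes. Their mRNA did not pass the test between clones (edgeR adjusted p of 0.437, 0.903, 0.970 and 0.916).

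Clone-only regions were spread over the genome. By chromosome, Mut18-only regions were 1.07% (chromosome 7) to 2.13% (chromosome 19) of regions, and Mut43-only regions were 1.31% (chromosome 19) to 1.76% (chromosome 7). The share of peaks on a chromosome, with the lists of a clone pooled, differed between clones by a ratio of 0.990 to 1.016. Between the single libraries of 1 clone it was 0.981 to 1.022. The first ratio pools lists and the second does not, so the ranges are not directly comparable. Nearly all were single: of the Mut18-only regions 1192 had no neighbour of the same kind and 10 pairs did, near Tars2, Tmem150c and Cabp1 among others. For Mut43 there were 1179 single regions, 11 pairs, among them pairs near Amhr2 and Atf1, and 1 run of 3 regions next to Runx3, a Runt family transcription factor (chr4:135085248-135129028).

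The overlap of lists between clones lay around that within clones. Over bases, the Jaccard index (shared over total) was 0.714 for the Mut18 libraries and 0.719 for the Mut43 libraries, and 0.713 to 0.730 for the 4 pairs of libraries from different clones. The highest overlap of all was that of Mut18-2 with Mut43-1. Within clones the mean index was 0.716 and between clones 0.719 (exact permutation test, 1-sided, p = 0.667).

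Ranks gave a like picture over the 50933 regions in all 4 lists. The median absolute difference in percentile was 6.51 points between the Mut18 libraries and 6.44 between the Mut43 libraries, and 6.16 to 6.69 between libraries of different clones. Spearman's correlation was 0.903 and 0.901 within clones and 0.896 to 0.908 between them, given as a description over regions that share 4 libraries. The mean over pairs was 6.47 points within clones and 6.48 between them (exact permutation test, 1-sided, p = 0.667). Promoter regions were steadier than distal ones in every pair, at a median of 4.92 to 5.27 points.

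**Figure D2:**
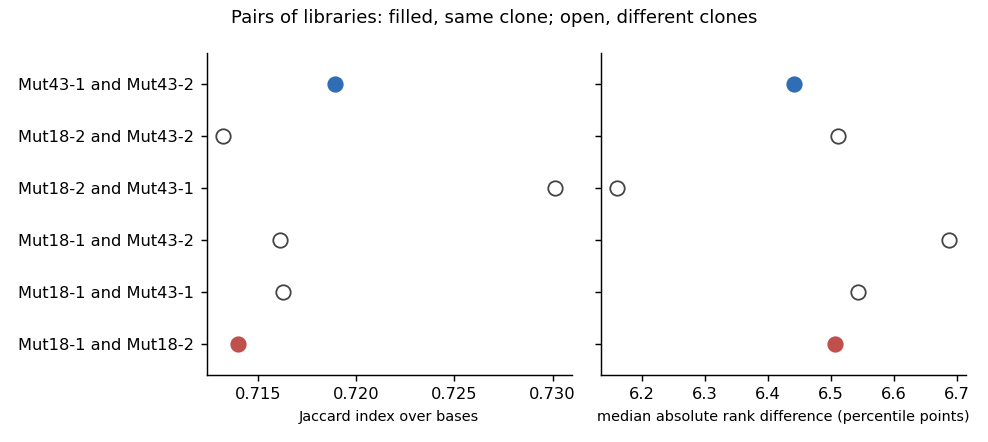
Jaccard index over bases (left) and median absolute difference in percentile rank over regions in all 4 lists (right) for the 6 pairs of mutant libraries; the x axes do not start at 0. The pairs of 1 clone (filled) lie among the pairs of different clones (open), and Mut18-2 with Mut43-1 has the highest overlap (0.730) and the smallest difference (6.16 points).

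No region changed rank between the clones by the test. With limma on normal scores of the ranks, 0 of 50933 regions passed at an adjusted p under 0.05 in either direction (0 higher in Mut43, 0 higher in Mut18), and the lowest adjusted p was 0.986. At an unadjusted p under 0.05 there were 2547 regions (5.00%), of which 1278 were higher in Mut43 and 1269 in Mut18. With edgeR on the recovered summit reads 0 regions passed, with 128 at an unadjusted p under 0.05 (0.251%). Both libraries of 1 clone ranked above both of the other in 16866 regions (33.1%). The fold enrichment, quantile normalised between libraries, differed between clones by less than 0.5 on the log2 scale in 99.8% of regions. The extremes of this difference were -0.63 and 0.73. The unadjusted 95% interval of a region's difference reached 0.553 SD of the rank score to either side in the median region. Even the largest difference, 1.47 near Olfr782, had a limma adjusted p of 0.986. Differences well above 0.553 were thus not detectable over all regions in 2 libraries per clone.

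The 6 regions with the lowest p that ranked higher in Mut43 lay near Olfr782, Dlc1, Galk1, Fam204a, Rbfox1 and Dpp7. Near the olfactory receptor gene Olfr782 the summit held 17 and 19 reads in Mut18-1 and Mut18-2, 30 and 31 in Mut43-1 and Mut43-2, and 42 and 23 in the WT libraries (percentiles 23.3 and 28.1 against 75.2 and 83.1). In an intron of Dlc1 it held 17 and 19 against 34 and 26, with 30 and 24 in WT. The clones did not overlap at either region, and the WT percentiles lay within or above those of the mutants.

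At the promoter of Fam204a the percentiles were 85.5 and 86.1 in Mut18 and 98.2 and 98.5 in Mut43, and at that of Dpp7, a lysosomal peptidase gene, 12.7 and 18.8 against 59.9 and 50.8. The mRNA of Fam204a and Dpp7 differed by -0.01 and 0.04 on the log2 scale (edgeR adjusted p of 0.985 and 0.959). The 6 regions that ranked higher in Mut18 lay near Topaz1, BC030870, Mis18a, Syt3, Ceacam13 and Kcnn2. At Topaz1, a germ cell gene, the summit 36 bp from the TSS held 52 and 60 reads in Mut18, 42 and 37 in Mut43, and 65 and 51 in WT. At BC030870, whose sequence with an AP-1 match is given above, it held 30 and 34 in Mut18, 22 and 19 in Mut43, and 30 and 22 in WT.

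At Pou5f1 and Nanog every region was shared. All 4 regions within 10 kb of Pou5f1, which codes for Oct4, and all 3 near Nanog were in all 4 lists, and their log2 fold enrichment differed by -0.01 to 0.12. The Pou5f1 region 715 bp from the TSS held 70 and 75 summit reads in Mut18 and 71 and 72 in Mut43, with 96 and 79 in WT. The Nanog promoter held 52 and 63 reads in Mut18 and 57 and 56 in Mut43. These summits had more reads than the median summit and yet low percentiles, 0.396 to 0.619 at that Pou5f1 region and 6.17 to 8.75 at the Nanog promoter, since fold enrichment is taken over the local background.

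Around Sox2, 2 of 5 regions were in all 4 lists, 1 was in Mut18 only (44 and 42 reads, WT-1 70) and 1 in Mut43 only (48 and 49 reads, no WT list). Both of these had percentiles below 4 and lay 1428 and 3606 bp from the TSS. Sox2 mRNA was at 7061 and 7141 normalised counts in Mut18 and 7238 and 7416 in Mut43 (edgeR log2 fold change 0.05, SE 0.04, adjusted p = 0.845). At Klf4, which codes for a Krüppel-like factor of the naive state, 1 of 3 regions was in all 4 lists and the others had no clone pattern. At the orphan receptor gene Esrrb 6 of 8 regions were in all 4 lists and the lowest unadjusted limma p was 0.0335, with an adjusted p of 0.986. At Lefty2, a Nodal antagonist, 4 of 5 regions were in all 4 lists.

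Among 15 gene lists, a promoter in 1 clone only was seen at 2 genes. Of the 13967 genes tested for mRNA that have a place in the annotation, 17 had a promoter in Mut18 only and 18 in Mut43 only (0.251% together). The promoter of Dppa3, a gene of the germline and the naive state, had a peak in both Mut18 lists, 1 WT list and no Mut43 list, and that of Gata4, an endoderm transcription factor, had one in both Mut43 lists, both WT lists and no Mut18 list. The mRNA of Dppa3 and Gata4 differed by 0.00 and 0.20 on the log2 scale (edgeR adjusted p of 0.994 and 0.862). Of all regions within 100 kb of a gene 3.06% were in 1 clone only, and in the lists this share ran from 0% (contractile, housekeeping and 2-cell-like genes) to 4.67% (pluripotency factors, 7 of 150 regions). The primed-state list had 2.38%, primitive endoderm 3.77%, trophoblast 4.23%, the Nodal and Lefty pathway 4.65%, Wnt 2.13%, imprinted genes 1.32%, germline genes 4.17%, homeobox and paired-box regulators 3.91%, fibroblast and feeder markers 3.17%, H3.3 genes and chaperones 3.13%, and the enzymes and readers of H3K27 acetylation 1.96%. The counts behind them are 0 to 7 regions a list.

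Other promoters of the lists were found in part of the mutant libraries, and those named here are examples, not all of them. Those of Foxa2, Twist1, Cyr61, Cdx1, Hoxb4, Hoxd13, Nkx2-2, Emx2, Igf2, Peg10 and Sgce were in 3 of 4 lists. The promoters of Lefty1, Sp5, Meg3, Dlk1, Hoxb9, Hoxc8 and Kat2b were in 1 list. All 10 genes of the 2-cell-like state, Zscan4c, Zscan4d and Zscan4f among them, had no region at the promoter in any mutant list. Over the lists, the median difference in log2 fold enrichment was -0.04 to 0.04, against 0.00 over all regions within 100 kb.

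Motifs were counted in 200 bp around the summit, on both strands. AP-1 (TGANTCA) was found in 7.18% of Mut18-only and 7.23% of Mut43-only regions, 7.38% of regions with 1 list of each clone and 5.94% of regions in all 4 lists. The POU octamer ATGCAAAT was found in 2.06% and 2.16%, with 2.48% of those in all 4 lists. The CTCF core AGGGGGCGC was found in 1.57% and 1.74%, against 1.87%, and the Klf letters CCACACCC in 4.54% and 4.90%, against 4.14%. The Gata letters AGATAA were in 5.69% and 5.65%, the Tead letters ACATTCCA in 14 and 18 regions, and the Esrrb letters TCAAGGTCA in 3 (0.248%) and 10 regions (0.831%). The median GC content was 53.5% and 53.0%, and 56.5% for regions in all 4 lists.

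The caller's local background, the coverage it expects at a summit and that fold enrichment divides by, was compared after the ranks had been seen. Whether an input or the library itself set this background is not given in the sources used here. If the library itself did, summit and background share reads and are not separate measures. The local background was taken over the genome background of the same library. The 43866 regions compared were in all 4 lists and exceeded that value in at least 1 list. With limma, 12 regions passed (0.0274%), 8 higher in Mut43 (0.0182%) and 4 higher in Mut18 (0.00912%). Of these 12, 10 also passed among regions above the genome background in all 4 lists. The other 2, near Pifo and Ano10 (chr9:122234583), were at the genome background, the lowest value the caller takes, in 1 or both Mut18 lists. This Ano10 region entered through Mut43 alone, so its call is not independent of the filter. At Pifo, Mut18-1 was at 1.04, enough to enter, and Mut18-2 was at 1.00. That lowest value bounds the Mut18 values at both regions. The 12 lay in 4 stretches, near Wdr77, Prmt6, Ano10 and Galk1. Regions in a stretch share reads in their backgrounds and are not independent. A difference above 0.4 on the log2 scale was found in 13 regions between the clones and in 0 regions for each of the other pairings of the libraries (exact permutation test over the 3 pairings, 1-sided, p = 0.333, the smallest possible). Without any 1 of the 4 libraries 0 regions passed (1788 to 2106 at an unadjusted p under 0.05).

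**Figure D3:**
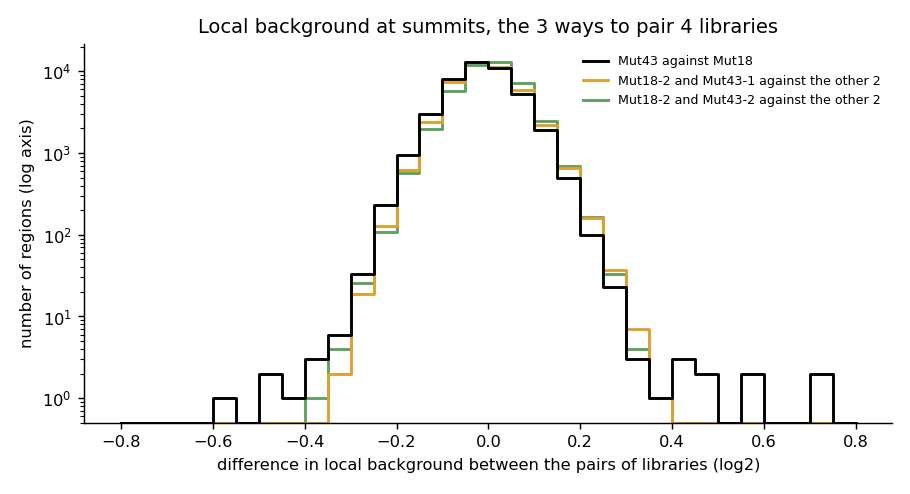
Number of regions (y axis, log scale) by the difference in local background between pairs of libraries (x axis, log2). The clones (black) and the other pairings (colours) have alike centres, with an SD of 0.0709, 0.0693 and 0.0685, and only the black line goes past 0.4 to either side (13 regions).

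On chromosome 3 the background was lower in Mut18 over a stretch of 93.3 kb (chr3:105959036-106052352) that starts at the shared promoter of Wdr77, a partner of the arginine methyltransferase Prmt5, and Atp5f1, a subunit of the mitochondrial ATP synthase. At that promoter it was 1.70 and 1.35 times the genome background in Mut18-1 and Mut18-2, 2.58 and 2.51 in Mut43-1 and Mut43-2, and 2.56 and 2.76 in WT (log2 difference 0.75, SE 0.09, limma adjusted p = 0.000271). The summit held 39 and 29 reads in Mut18, 56 and 49 in Mut43, and 71 and 60 in WT. Mut18 lay below Mut43 and WT in the background and in reads, and Mut43 was close to WT in the background.

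Because summit and background were low together, fold enrichment at the Wdr77 promoter differed by 0.01 on the log2 scale, and the ranks did not set it apart. Of the other 4 regions of the stretch, 2 had a peak in all 4 lists, and Mut18 was below Mut43 at both. At Pifo, a gene of primary cilia, the summit held 41 and 45 reads in Mut18, 58 and 60 in Mut43, and 81 and 59 in WT, over backgrounds of 1.04 and 1.00 in Mut18 and 1.64 and 1.68 in Mut43. The caller takes no background below 1.00, so that value is an upper bound and no p is given for this region. At the intergenic region near Chil5 the summit held 35 and 36 in Mut18, 60 and 53 in Mut43, and 72 and 61 in WT (limma adjusted p for the background 0.000839).

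Peak presence was also counted there. Of the 14 regions in the stretch and 200 kb to either side, 4 were in Mut43 only and 0 in Mut18 only. Over all regions these shares were 1.53% and 1.54%. The stretch was picked for a low background in Mut18, and presence was called in the same libraries. The count is thus not independent of that choice, adds no separate evidence and was not tested. The 4 Mut43-only regions lay near Adora3 (2 regions), Chil5 and Chia1, with 19 to 33 reads in the Mut43 libraries. All 4 were in both WT lists with 22 to 40 reads. The Chil5 region with the CTCF core match shown above is one of them. Beyond them, the Rap1a region at chr3:105825608 held 20 and 21 reads in Mut18 and 23 and 28 in Mut43, and the Chil4 region at chr3:106251155 held 25 and 22 against 24 and 19, so the clones were close at the first and overlapped at the second.

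On chromosome 11 the background was higher in Mut18 over 21.4 kb (chr11:115997109-116018501) around Galk1, the galactokinase gene next to the edited gene H3f3b. At the region 12966 bp from the Galk1 TSS it was 5.80 and 5.72 times the genome background in Mut18, 3.86 and 3.75 in Mut43 and 2.76 in WT-1, with no peak in WT-2 (log2 difference -0.60, SE 0.04, limma adjusted p = 1.17e-07). The summit itself held 40 and 47 reads in Mut18, 52 and 38 in Mut43 and 46 in WT-1, so the clones overlapped there. The region's fold enrichment was 3.23 and 3.43 in Mut18 and 5.41 and 4.58 in Mut43.

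The coding-exon region of the stretch had backgrounds of 7.19 and 7.21 in Mut18 and 5.07 and 5.40 in Mut43, with both WT libraries lower still. The Galk1 region whose sequence is given above had 5.76 and 5.62, 4.48 and 4.69, and 3.76 and 4.19, with 66 and 66 summit reads in Mut18 and 81 and 74 in Mut43. Mut18 was thus highest and Mut43 between at each of these, while the low WT values were not limited to the stretch. Both WT libraries, or the one with a peak, lay below all mutant libraries at 6 of 6 regions in it. The same held at 32 of 34 regions in the 200 kb to either side. Chromosome 11 as a whole held 8.54 to 8.59% of each mutant list's peaks, against 7.40% and 7.43% in WT-1 and WT-2. At the H3f3b region next to it the mean difference was 0.11 on the log2 scale, with 7.66 and 7.95 in Mut43 above Mut18, and did not pass (limma adjusted p = 0.825).

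**Figure D4:**
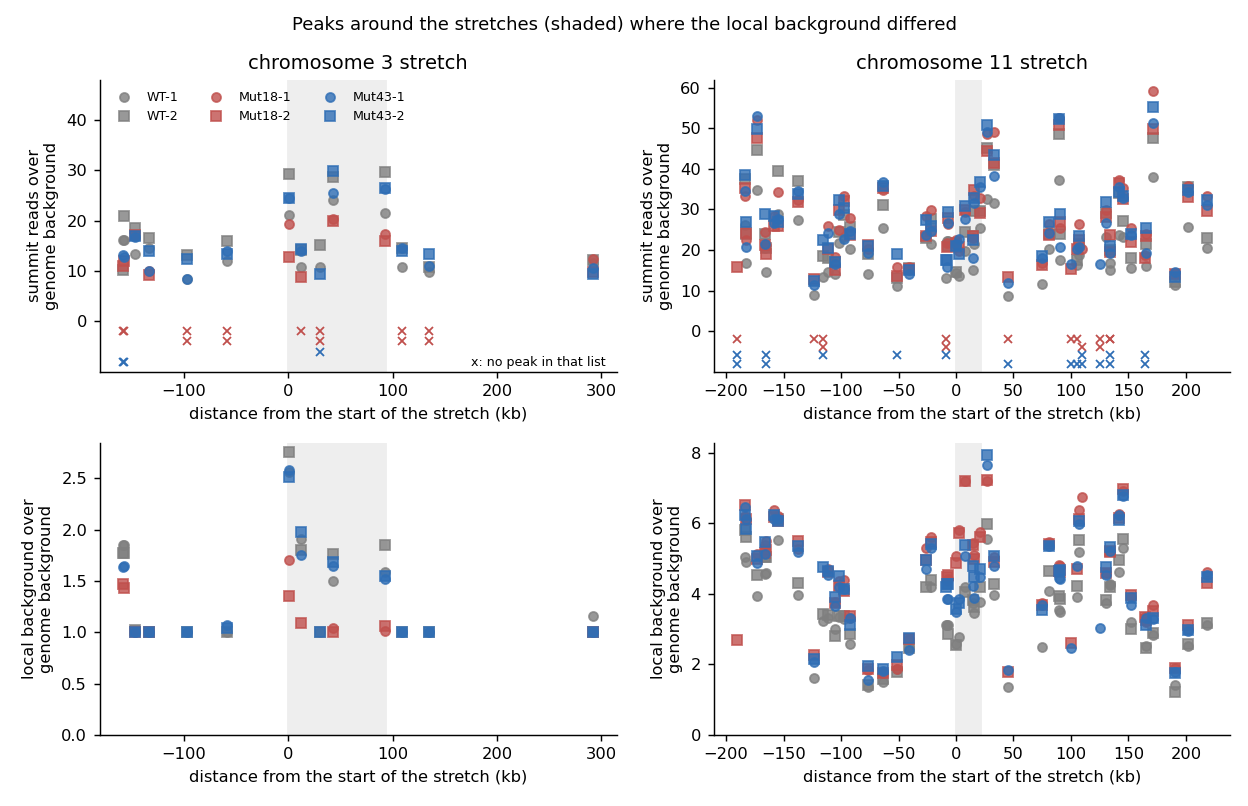
Summit reads (top) and local background (bottom), both over the library's genome background, at each region by its distance from the start of the stretch (x axis, kb); grey, WT, red, Mut18, blue, Mut43, circles replicate 1, squares replicate 2, crosses lists without a peak. In the shaded chromosome 3 stretch both measures are lowest in Mut18 where it has a peak above the genome background, with a promoter background of 1.35 and 1.70, and in the shaded chromosome 11 stretch the background is highest in Mut18 while its summit reads lie among or above those of Mut43 at most of the regions.

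On chromosome 9 the background was higher in Mut43 over 84.6 kb (chr9:122225325-122309882) of Ano10, a member of the anoctamin family. At the Ano10 promoter it was 2.67 and 2.61 in Mut18, 3.23 and 3.29 in Mut43, and 2.64 and 2.98 in WT, and the summit held 66 and 74, 94 and 81, and 100 and 71 reads. Over the library's genome background these reads were 32.8 and 32.6 in Mut18, 41.2 and 40.4 in Mut43, and 29.8 and 34.5 in WT. WT thus overlapped Mut18 in the background and in reads so scaled, and lay below Mut43 in both. At the promoter of Abhd5, a coactivator of lipolysis beyond the stretch, the summit held 43 and 47 reads in Mut18, 70 and 53 in Mut43 and 70 and 57 in WT, but its background did not pass (adjusted p = 0.487). On the same chromosome 3 as Wdr77, a distal region at chr3:110847049 whose nearest gene is Prmt6, an arginine methyltransferase, had 1.39 and 1.52 in Mut18, 1.92 and 2.13 in Mut43, and 1.36 and 1.49 in WT. No input DNA library was analysed here, so fewer copies of a stretch and less accessible copies cannot be told apart.

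The mRNA of the same clones gave a second readout. Between Mut18 and Mut43, 46 of 14061 genes passed the edgeR test (0.327%), 9 higher in Mut43 (0.0640%) and 37 higher in Mut18 (0.263%), from libraries of 14992756 to 15143998 counts. The lowest p-values belonged to Wdr77 and Atp5f1. Wdr77 was at 2081 and 2152 normalised counts in Mut18, 4553 and 4364 in Mut43, and 3864 and 3935 in WT (log2 fold change 1.07, SE 0.05, adjusted p = 1.30e-14). Atp5f1 was at 2628 and 2733, 5464 and 5171, and 5047 and 5211 (log2 fold change 0.99, SE 0.05, adjusted p = 5.39e-14). Mut18 was the clone that stood away from WT at both genes.

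The neighbours in the chromosome 3 stretch were low genes. Ovgp1, an oviduct glycoprotein gene, was at 5.01 and 9.10 normalised counts in Mut18 and 22.4 and 17.3 in Mut43, and Pifo at 5.01 and 4.05 against 10.2 and 10.1, and neither passed (adjusted p of 0.213 and 0.638). Rap1a, outside it, differed by 0.11 (adjusted p = 0.690). In the other stretches, the mRNA of Galk1 differed by -0.13 on the log2 scale (adjusted p = 0.535), with 1315 and 1194 normalised counts in Mut18, 1143 and 1149 in Mut43 and 732 and 793 in WT. That of Ano10 differed by -0.15 (adjusted p = 0.910) and that of Abhd5 by 0.25 (adjusted p = 0.581).

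The edited genes themselves were close in both clones. H3f3b was at 11654 and 12026 normalised counts in Mut18, 13556 and 13386 in Mut43, and 12378 and 12398 in WT (log2 fold change 0.19, SE 0.04, edgeR adjusted p = 0.0402), a call that held in 3 of 9 alternatives. H3f3a differed by -0.08 (SE 0.05, adjusted p = 0.717). A codon change does not show in these counts, so they do not check the genotype.

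**Figure D5:**
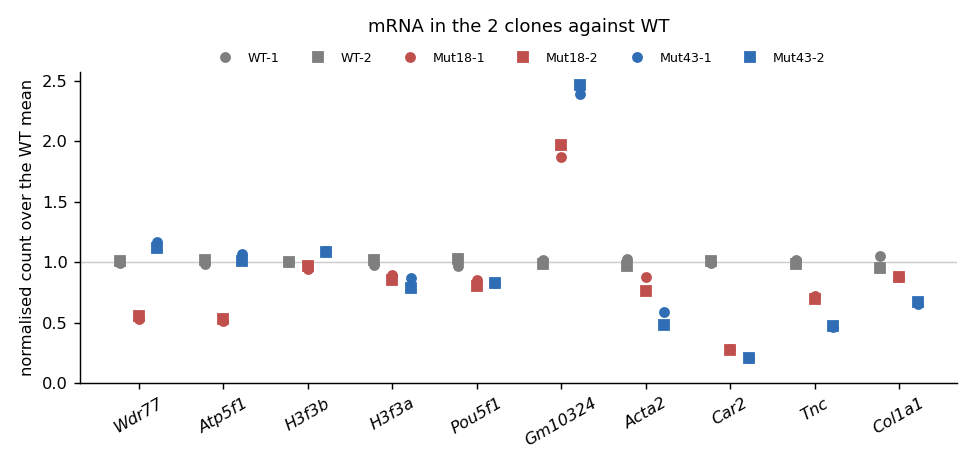
Normalised mRNA count over the mean of the WT libraries (y axis, linear) for 10 genes, 1 point per library. Wdr77 and Atp5f1 are low in the Mut18 libraries only, Gm10324 is above WT and Car2 below WT in both clones, and Acta2, Tnc and Col1a1 are lowest in Mut43.

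Peaks at the promoters of the called genes were shared. Of the 37 genes higher in Mut18, 33 (89.2%) had a promoter region in all 4 lists, as did 6 of the 9 higher in Mut43 (66.7%) and 85.9% of all genes tested. A promoter in 1 clone only was found at 0 of the 46 called genes, where 0.251% of all genes had one, so this count says nothing particular about them. The median difference in fold enrichment at these promoters was -0.01 and 0.00 on the log2 scale. Car2, carbonic anhydrase, was at 1678 and 1663 normalised counts in Mut18, 1257 and 1230 in Mut43, and 5935 and 6066 in WT (log2 fold change -0.43, SE 0.05, adjusted p = 2.33e-05), while its promoter held 42 and 56, 50 and 44, and 63 and 48 summit reads. Gm10324 was at 1427 and 1506 in Mut18 and 1827 and 1881 in Mut43 (adjusted p = 0.000501), and its regions held 42 and 43 reads against 42 and 41, and 25 and 24 against 22 and 25. The clones overlapped at the peaks of both genes.

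Of 14 contractile and matricellular genes tested, 5 passed as lower in Mut43 and 0 as higher, where 0.263% and 0.0640% of all genes did. The 5 were Acta2, smooth muscle actin (log2 fold change -0.62, SE 0.07), Tagln (-0.38, SE 0.06), Cald1 (-0.37, SE 0.05), Thbs1 (-0.32, SE 0.06) and Tpm1 (-0.20, SE 0.04), with edgeR adjusted p-values of 1.09e-05 to 0.0362. Acta2, Tagln and Cald1 kept their direction in the 9 alternatives but did not pass in every one. Their log2 fold changes there were -0.776 to -0.482, -0.483 to -0.277 and -0.386 to -0.343. The median of the contractile list was -0.31, against 0.00 over all genes. The lists were chosen with earlier results of these libraries known, so neither the count nor the median is independent evidence of a direction. Tnc, an extracellular matrix gene of no list, was at 730 and 704 normalised counts in Mut18, 469 and 482 in Mut43, and 1030 and 998 in WT (log2 fold change -0.59, SE 0.07, adjusted p = 2.33e-05). Of 17 fibroblast and feeder markers tested, Col1a1 (-0.41, SE 0.05) and Vim (-0.34, SE 0.05) passed as lower in Mut43 and 0 passed as higher. Neither of them passed in every alternative. By estimate alone, 12 of the 17 were lower in Mut43 and the rest, Col6a2 and Thy1 among them, were higher. That list summed to 19125 and 19017 normalised counts in Mut18, 17683 and 17408 in Mut43, and 23281 and 20878 in WT, and 0 of its 18 genes were at 0 in all mutant libraries. The part of remaining feeder cells in these differences was not tested. The promoters of Tagln, Cald1, Thbs1, Tpm1, Tnc, Col1a1 and Vim were in all 4 lists, with log2 fold enrichment differences of -0.12 to 0.21, none of which passed. Acta2 had no promoter region in any list.

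Of 20 imprinted genes tested, Igf2, Gnas, Cdkn1c and Peg3 passed as lower in Mut43 (-0.35, -0.32, -0.37 and -0.34), against 0.263% of all genes. As higher, 0 passed. The promoters of Gnas, Cdkn1c and Peg3 were in all 4 lists. Of 20 pluripotency genes, Tbx3 alone passed (0.38 higher in Mut43). In the remaining lists H3f3b was the only gene that passed. Seen from the peaks, 617 tested genes had a Mut18-only region within 50 kb and 666 a Mut43-only region. Their median mRNA differences were 0.01 and 0.00 on the log2 scale, and 4 and 2 of them passed, against 0.327% of all genes. Of the 617 genes 327 were higher in Mut43, and of the 666 genes 317 were.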

How the data were processed

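Mut18, Mut43 and WT ATAC-seq (2 libraries each) and mRNA-seq (2 each) were analysed on mm10. The authors deposited, per library, MACS2 peaks with fold enrichment as a ratio over the caller's background and -log10 p and q values (q above 6), and mRNA read counts per gene. Their processing notes name Bowtie2 2.3.4.2, SAMtools, STAR, DESeq2, deepTools 3.3.0 and MACS2, with no roles, and mm10 joined to dm6; Tn5 shift, duplicate handling and the counting annotation are not given in the sources used here. The members and gene lists were chosen with earlier results of these data known.

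Whole summit reads and the background were solved from fold and p (tolerance 0.01 in -log10 p). Ranks within each list became normal scores and were tested with limma 3.58.1 (trend, regions in all 4 lists, Benjamini-Hochberg). Log2 differences in fold enrichment between clones were taken after quantile normalisation, which gives the libraries the same distribution over these regions. mRNA counts were tested with the quasi-likelihood test of edgeR 4.0.16 (TMM, filterByExpr, 3 groups), DESeq2 1.42.0 being an alternative. Normalised counts are TMM-scaled to the mean library. Promoters lay within 1 kb of 52099 GENCODE protein-coding TSSs. Named were the 6 regions of lowest p in each direction, the 6 highest-ranked per clone-only class, the 3 longest runs per clone, 10 loci and the 3 lowest-p genes in each direction, plus in lists genes with a promoter in 1 clone only; other genes were chosen after their values were seen. Replicate numbers do not pair libraries (correlation of deviations -0.00904 for ranks and 0.00095 for mRNA). The study calls its replicates biological duplicates, and the labels give only numbers. p-values cover the spread between these libraries, which may be technical, and counting errors treat reads as independent molecules. The programs were tested on simulated data.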

Additional observations from a re-analysis of the deposited data

How the results depend on the processing

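Of 239 recomputed values, 149 values of single genes or regions kept their direction and their side of the threshold. A further 35 comparisons kept their sign or, for counts, stayed near the main count, with no threshold checked. Near was wide enough to hold 3541 clone-only regions with merging by summits in place of 2416. The count of clone-only regions rose to 7202 to 7823 when 1 library was left out, since presence in 1 list then sufficed. Jaccard within minus between clones was -0.00922 to 0.00274 over those fits. For ranks, the difference between minus within clones changed sign with -log10 q of at least 10 (-0.0110), with equal numbers of peaks (-0.0344) and with merging by summits (-0.00304), and was -0.157 to 0.166 without 1 library, and the correlation difference was -0.00357 to 0.00396. The rank differences were small against the 6.44 and 6.51 points between replicates. Setting an absent peak to the lowest rank, which makes it one low value by construction, gave 1031 calls (496 higher in Mut43, 535 in Mut18) among regions in both lists of at least 1 clone. In place of 46 genes, 24 passed with no filter on low counts, 76 with the mutant libraries alone, 25 with DESeq2 and 3 to 13 without 1 library. Among the 11 genes followed through the alternatives, only Wdr77, Atp5f1 and Tnc passed in all of them. In place of 12 local backgrounds, 6 passed without the trend, 27 among regions above the genome background in all 4 lists and 0 without any 1 library; these alternatives were chosen after seeing the data. The shares in both WT lists were 29.2% and 28.0% with equal numbers of peaks, and promoter shares were 8.58% and 9.47% within 500 bp and 15.6% and 16.1% within 2 kb. With the replicate number as a block 0 ranks, 38 genes and 27 local backgrounds passed, the last fit having 12 of them shared with the fit without the block and regions of no variance between libraries; the numbers do not pair the libraries. Except for H3f3b, the block ended the call of no gene among the 11 followed through the alternatives. The cause of the other shifts was not tested.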
